A study of Drosophila melanogaster with 13 samples.

Results

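Heat shock and chaperone genes are described here through 10 genes picked by symbol: Hsp22, Hsp23, Hsp26, Hsp27, Hsp68, DnaJ-1, stv, Hsp83, Hsc70-3 and Hsc70-4, out of 17737 genes in the count table. All 10 had a row, 9 passed the filter on low counts, and Hsp22 had no reads in any library. RNA came from GFP-labelled neurons taken by mouth pipette from protease-treated brains of the fruit fly Drosophila melanogaster, 13 libraries in all. TRH-Gal4 neurons (a driver named for tryptophan hydroxylase, the enzyme of serotonin synthesis) came from acutely dissociated brains as 4 pools, and sNPFR-Gal4 neurons (a driver named for the short neuropeptide F receptor) came from pinned brains as 1 pool and 8 single cells. Pools held 15 to 60 cells and had 12 cycles of PCR, single cells 17. Pools and cells carry the numbers of their labels. Every library holds whatever cells its driver marked, and no label used here states the sex, age or number of flies.

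Heat shock proteins bind unfolded proteins and keep them from clumping. When cells are heated or otherwise stressed, heat shock factor binds the promoters of the inducible genes and their transcription rises steeply, while cognate genes such as Hsc70-4 are transcribed at all times for routine folding. Small heat shock proteins hold unfolded clients, Hsp70 proteins and their J-protein partners refold them, and Hsp90 matures signalling proteins. In neurons the same machinery also serves the synapse, where Hsc70-4 works in vesicle cycling.

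TRH-Gal4 and sNPFR-Gal4 libraries differ in driver, in brain handling (dissociated or pinned) and in the flies used, and these cannot be told apart. The 8 cells also differ from the TRH pools in library type (single cell or pool) and in cycles of PCR (17 or 12). Tests set the 4 TRH pools against 2 sNPFR units, namely the pool and the 8 cells with their reads added up, since no label names the animals and cells are then not replicates. The p-values therefore reflect the spread among these libraries alone, which may be technical. Levels are CPM, reads scaled to 1000000 per library, and the value after ± is the SD over the 4 TRH pools (n = 4). Log2 fold changes are TRH minus sNPFR, from edgeR's quasi-likelihood test with TMM scaling. The ± after a fold change is an approximate standard error worked back from the test, and adjusted p-values are Benjamini-Hochberg values over all 7426 genes tested. In bulk pools, fewer cells of a type and less RNA per cell cannot be told apart.

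Depth ran from 8.72 to 15.56 M reads in the TRH pools, was 56.12 M in the sNPFR pool and ran from 3.38 to 67.96 M in the cells, of which cell 7 gave 52.7% of all 129.1 M reads. Where no read was counted, up to 3 reads are allowed, or 0.193 to 0.344 CPM for the TRH pools, 0.0535 CPM for the sNPFR pool and 0.0441 to 0.887 CPM for single cells. These limits cover counting error only, since PCR copies were counted as reads. All 8 neuron markers listed had reads in each pool and in at least 1 cell, with a summed level of 9217 to 10186 CPM per TRH pool, 7705 CPM for the sNPFR pool and 8621 to 16548 CPM per cell. Of these, elav stood at only 1.372 CPM in the sNPFR pool, against 191.6 to 370.9 CPM in the TRH pools. Cells 4 and 5 had reads of 6 of the 8 markers each. The 4 serotonergic markers summed to 55955 to 92420 CPM per TRH pool, 572 CPM for the sNPFR pool and 1.563 to 4790 CPM per cell. In the sNPFR libraries nearly all of it came from Ddc. Trh, SerT and Vmat had no read in the sNPFR pool and reached at most 0.2555, 0.2224 and 0.6388 CPM in a cell. Of 11 glia markers 9 had reads in at least 1 TRH pool and 5 in the sNPFR pool, with sums of 92.61 to 596.4 CPM per TRH pool, 1634 CPM for the sNPFR pool and 2.914 to 528.7 CPM per cell. Hemocyte and basement membrane markers summed to 164.7 to 417.6 CPM per TRH pool, had no read in the sNPFR pool and reached at most 0.3125 CPM in a cell. Nearly all of this was 1 gene, Pxn, at 251.6 ± 115.4 CPM in the TRH pools. Photoreceptor markers summed to 261.6 to 447.2 CPM per TRH pool and 1023 CPM for the sNPFR pool, nearly all of it from norpA, at 376.6 ± 81.0 and 1023 CPM, with only 1 or 2 of the 7 markers having reads in a pool. Fat body markers summed to 17.67 to 94.46 CPM per TRH pool and 39.28 CPM for the sNPFR pool, and muscle markers to 0.2285 to 14.84 and 13.94 CPM. The nuclear glia marker repo had 31 reads in TRH pool 60 and none in the other TRH pools or in the sNPFR pool.

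Among the members, Hsp83 and Hsc70-4, which cells express at all times, were called lower in the TRH pools than in the sNPFR units. Hsp83 is also raised further by heat and is grouped here with the constitutive members. None of the 6 members grouped as heat-inducible that could be tested passed in either direction. The 2 calls among 9 tested members stand beside 13.6% of all tested genes called in either direction and 3.03% called lower in TRH (edgeR, adjusted p under 0.05). Without TRH pool 45, 60 or 57 the calls over all genes fell to 30, 39 and 16, against 1009 with all 4 pools, and no member was called. The median log2 fold change was -0.86 over the 9 members and 0.67 over all tested genes. An unadjusted p under 0.05 was reached by 3 of the 9 members, Hsp26 besides those 2, and by 33.3% of all tested genes. On plain CPM none of the 9 members had TRH pools that lay wholly to one side of both sNPFR units, beside 35.5% of all tested genes. On the TMM scale 3 of the 9 did, Hsp26, Hsp83 and Hsc70-4, beside 35.4% of all tested genes.

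**Figure D1:**
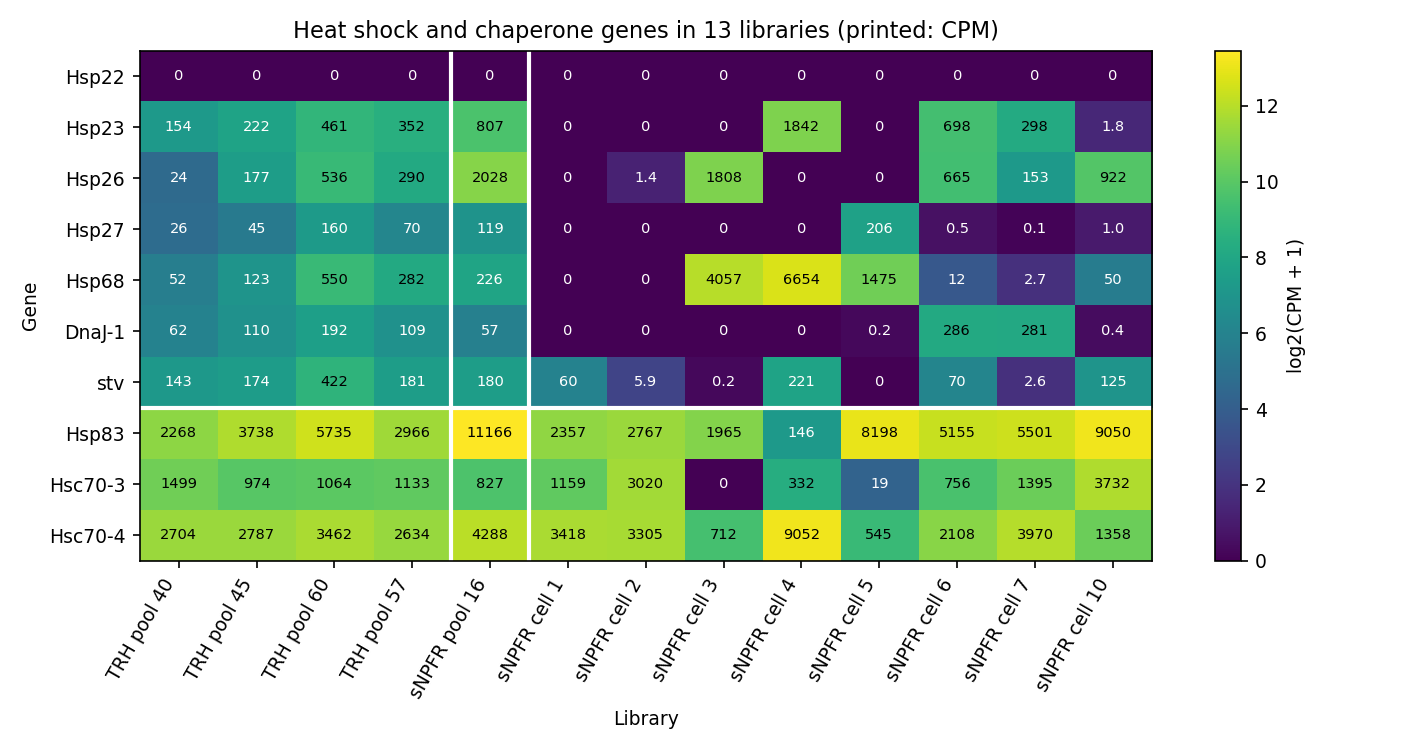
Level of each of the 10 genes (rows, inducible above and constitutive below the white line) in each of the 13 libraries (columns, TRH pools left, then the sNPFR pool and the sNPFR cells), coloured by log2(CPM + 1) and printed as CPM. Every TRH pool held reads of the 9 genes other than Hsp22, while single cells held some inducible genes at over 1000 CPM and others at 0.

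The small heat shock genes Hsp22, Hsp23, Hsp26 and Hsp27 code for ATP-independent holding chaperones of the alpha-crystallin family. They lie together within 12.8 kb of chromosome 3L (9372931 to 9385694, BDGP6). Hsp22 (FBgn0001223, 9372931 to 9374964, plus strand) makes a protein of the mitochondrial matrix. It had 0 reads in all 13 libraries. In the annotation used here all 1900 exon bases of Hsp22 also belong to CG4456 on the same strand, so reads from this locus cannot be given to either gene. The row of CG4456 held 39 reads in TRH pool 60 and 0 in every other library. A count of 0 for Hsp22 is not read as absence of its transcript.

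Hsp23 (FBgn0001224, 9381882 to 9382765, plus strand) stood at 154.4, 221.7, 460.6 and 351.5 CPM in TRH pools 40, 45, 60 and 57, at 806.9 CPM in the sNPFR pool and at 247.8 CPM in the summed cells. The TRH pools lay below the sNPFR pool and on both sides of the summed cells. The log2 fold change was -1.24 ± 0.58 (adjusted p = 0.179, edgeR), with an approximate 95% interval of -2.61 to 0.14. Against the sNPFR pool alone, with the spread taken from the TRH pools only, it was -1.75, where the median over all tested genes was 7.565.

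Hsp26 (FBgn0001225, 9376418 to 9377427, minus strand), a cytosolic small heat shock protein, stood at 24.41, 177.2, 536.5 and 289.7 CPM in TRH pools 40, 45, 60 and 57. It reached 2028 CPM in the sNPFR pool, its highest level in any library, and 322.1 CPM in the summed cells. The TRH mean was 256.9 ± 215.8 CPM, with pool 60 above and the other pools below the summed cells. Without cell 7 the summed cells stood at 510.6 CPM, and without cell 10 at 217.4 CPM. The log2 fold change of -2.56 ± 1.04 was the largest of the members in size (unadjusted p = 0.0443, adjusted p = 0.142, edgeR), and it did not pass.

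Hsp27 (FBgn0001226, 9384063 to 9385694, plus strand), a small heat shock protein of the nucleus, was the least abundant small heat shock gene with reads. It stood at 25.67, 45.13, 159.9 and 70.04 CPM in TRH pools 40, 45, 60 and 57, at 119.1 CPM in the sNPFR pool and at 14.99 CPM in the summed cells. The groups overlapped (log2 fold change -0.20 ± 1.14, adjusted p = 0.926, edgeR), and the interval of -2.90 to 2.51 does not exclude a difference of several fold either way. Nearly all cell reads were from cell 5, and the summed level without it was 0.2504 CPM. Hsp27 shares 49 of its exon bases with the pseudogene CR43483 on the opposite strand, and Hsp68 and Hsp83 share 13 and 15 exon bases with opposite-strand genes. The SMART-Seq and Nextera XT kits do not mark strand, so reads of these stretches cannot be given to either gene.

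Hsp68 (FBgn0001230, chromosome 3R, 24055080 to 24057310, minus strand) codes for a heat-inducible Hsp70 family chaperone. It stood at 52.26, 123.3, 550.5 and 282.3 CPM in TRH pools 40, 45, 60 and 57, at 226.3 CPM in the sNPFR pool and at 433.5 CPM in the summed cells. The TRH pools lay on both sides of both units (log2 fold change -0.99 ± 0.91, adjusted p = 0.48, edgeR). The summed cells stood at 912.8 CPM without cell 7 and at 266.2 CPM without cell 4. Without cells 3, 4 and 5 together, the cells in which it was highest, the fold change changed sign to 0.74 (adjusted p = 0.698, edgeR). This choice of cells was made after their values were seen.

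DnaJ-1 (FBgn0263106, chromosome 3L, 5750029 to 5752189, minus strand) codes for a J protein that hands clients to Hsp70 and drives its ATP cycle. It stood at 61.55, 110.5, 192.1 and 109.4 CPM in TRH pools 40, 45, 60 and 57, at 56.93 CPM in the sNPFR pool and at 165.5 CPM in the summed cells. All TRH pools were above the sNPFR pool, and pool 60 also exceeded the summed cells. The log2 fold change was -0.54 ± 0.83 (adjusted p = 0.691, edgeR). The summed cells stood at 36.94 CPM without cell 7, and the fold change was then 0.85 (adjusted p = 0.497, edgeR).

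Starvin, the product of stv (FBgn0086708, chromosome 3L, 13477541 to 13483515, plus strand), is a BAG-domain nucleotide exchange factor for Hsp70. stv stood at 142.8, 173.9, 422.2 and 181.3 CPM in TRH pools 40, 45, 60 and 57, at 179.8 CPM in the sNPFR pool and at 34.57 CPM in the summed cells. It was the only tested member with a positive log2 fold change, 0.72 ± 0.81, close to the 0.67 median of all tested genes, and it did not pass (adjusted p = 0.573, edgeR). TRH pools 40 and 45 were below the sNPFR pool. The summed cells stood at 70.08 CPM without cell 7 and at 18.81 CPM without cell 10, both below every TRH pool.

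Hsp83 (FBgn0001233, chromosome 3L, 3192969 to 3197059, plus strand) codes for the cytosolic Hsp90, abundant without stress and further induced by heat. It stood at 2268, 3738, 5735 and 2966 CPM in TRH pools 40, 45, 60 and 57, at 11166 CPM in the sNPFR pool and at 5551 CPM in the summed cells. All TRH pools were below the sNPFR pool, and pool 60 was slightly above the summed cells. On the scale of the test, where levels of the summed cells are divided by a TMM factor of 0.679, the TRH pools averaged 3264 ± 1257 CPM, against 12150 CPM for the sNPFR pool and 8173 CPM for the summed cells. Hsp83 was lower in TRH (log2 fold change -1.64 ± 0.37, interval -2.51 to -0.77, adjusted p = 0.0323, edgeR). The call was lost without TRH pool 45, 60 or 57 (adjusted p = 0.0788, 0.0748 and 0.102, edgeR), and with library totals in place of TMM the fold change was -1.19 (adjusted p = 0.108, edgeR).

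Hsc70-3 (FBgn0001218, chromosome X, 11801696 to 11807117, minus strand) codes for the Hsp70 of the endoplasmic reticulum, known as BiP. It stood at 1499, 973.7, 1064 and 1133 CPM in TRH pools 40, 45, 60 and 57, at 827.4 CPM in the sNPFR pool and at 1610 CPM in the summed cells. The TRH pools lay between the units, and the fold change did not pass (-0.66 ± 0.41, adjusted p = 0.281, edgeR). Against the summed cells alone, with the spread taken from the TRH pools only, it was -1.31, where the median over all tested genes was 4.351.

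Hsc70-4 (FBgn0266599, chromosome 3R, 15242687 to 15246614, plus strand) codes for the main cytosolic cognate Hsp70, which also strips clathrin from vesicles. It stood at 2704, 2787, 3462 and 2634 CPM in TRH pools 40, 45, 60 and 57, at 4288 CPM in the sNPFR pool and at 3161 CPM in the summed cells. On plain CPM the TRH pools lay on both sides of the summed cells. On the TMM scale they averaged 2571 ± 289 CPM, against 4666 CPM for the sNPFR pool and 4654 CPM for the summed cells, and the gene was lower in TRH (log2 fold change -0.86 ± 0.20, interval -1.32 to -0.39, adjusted p = 0.0338, edgeR). With library totals only the fold change was -0.36 (adjusted p = 0.276, edgeR). The call was also lost without TRH pool 45, 60 or 57 (adjusted p = 0.0852, 0.0748 and 0.102) and without cell 7 (-0.64, adjusted p = 0.123, edgeR).

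**Figure D2:**
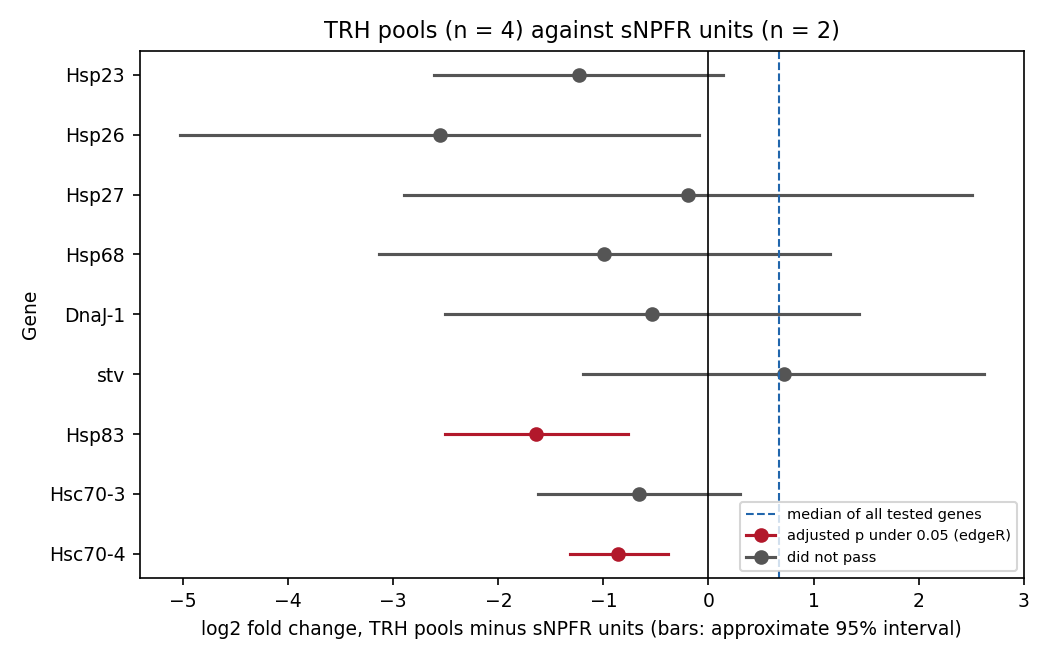
Log2 fold change of the 9 tested genes (horizontal axis, TRH pools minus sNPFR units) with approximate 95% intervals as bars. Hsp83 and Hsc70-4, in red, passed at -1.64 and -0.86, and the dashed line marks the 0.67 median of all tested genes.

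Levels of different genes were compared per kilobase of exon. In the TRH pools Hsp83 stood at 1242 ± 506 and Hsc70-4 at 1066 ± 141 CPM per kb (SD, n = 4), closer to each other than the SD of Hsp83, though not than that of Hsc70-4. Hsp23 (336 ± 154 CPM per kb), Hsc70-3 (325 ± 64.2) and Hsp26 (254 ± 214) came next and overlapped, followed by Hsp68 (113 ± 99.0). The folding partners stv (62.7 ± 35.2) and DnaJ-1 (54.8 ± 25.1) and the nuclear Hsp27 (46.1 ± 36.3 CPM per kb) were lowest and also overlapped. In the sNPFR pool Hsp83 (3772 CPM per kb) was followed by Hsp26 (2008), Hsc70-4 (1579) and Hsp23 (912.8 CPM per kb).

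Within the TRH pools the inducible members and Hsp83 shared their highest and lowest pool. Pool 60 was the highest and pool 40 the lowest for each of Hsp23, Hsp26, Hsp27, Hsp68, DnaJ-1, stv and Hsp83, that is for 7 of 9 members with reads. Between these extremes the order differed, with pool 45 above pool 57 for Hsp83 and DnaJ-1 and below it for the other genes. The same pair of extremes was found in 11.7% of 5787 genes that averaged 10 CPM or more in the TRH pools. The level in pool 60 over that in pool 40 was 22.0 for Hsp26, 10.5 for Hsp68, 6.23 for Hsp27, 3.12 for DnaJ-1, 2.98 for Hsp23, 2.96 for stv and 2.53 for Hsp83. Over all such genes with reads in pool 40 the median of that ratio was 0.942, and the 5th and 95th percentiles were 0.126 and 8.41. The constitutive Hsc70-4 (ratio 1.28) and Hsc70-3 (ratio 0.71) were lowest in pools 57 and 45. Hsf, the gene of heat shock factor, had the same extremes, at 8.711 CPM in pool 40 and 190.2 CPM in pool 60, as had lncRNA:Hsromega, a heat-inducible nuclear RNA, at 6008 and 9775 CPM. The other listed regulator, CG5446, was lowest in pool 40 (16.16 CPM) but highest in pool 57 (47.1 CPM). Among further listed genes Thor, Pfdn1, Ire1, p23, Gp93 and HIP, among others, had the same extremes. Calr and Xbp1 were highest in pool 40, and further listed genes had other orders.

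Among the glia markers the summed level had the same extremes, at 92.61, 193.4, 596.4 and 252.7 CPM in TRH pools 40, 45, 60 and 57. In pool 60 most of it came from the glutamate transporter gene Eaat1 (258.1 CPM) and the sodium pump subunit gene nrv2 (218.7 CPM), and the nuclear marker repo had reads in that TRH pool only. Other glia markers had other orders. Gs2 was highest in pool 45 (116.5 CPM) and at 0 reads in pool 57, alrm and Gat were highest in pool 45 (18.96 and 15.77 CPM), and Tret1-1, Indy and moody in pool 57 (86.36, 9.767 and 7.068 CPM), while wrapper and Mdr65 had 0 reads in every TRH pool. The sNPFR pool, where Hsp26, Hsp23 and Hsp83 were high, held 1105 CPM of Eaat1, 323.2 CPM of the astrocyte gene alrm, 160.8 CPM of Gs2, 45.19 CPM of Tret1-1 and 0.01782 CPM of Indy, and 0 reads of repo, nrv2, moody, Gat, wrapper and Mdr65. In cell 3, the cell highest in Hsp26, and cell 4, the cell highest in Hsp23, the glia markers summed to 48.09 and 13.61 CPM. In cells 10 and 6, next highest in Hsp26 and Hsp23, they summed to 528.7 and 5.98 CPM. The part of glial RNA in the levels of the heat shock genes was not tested. Pool 40 was the shallowest TRH pool, at 8.72 M reads with 6510 genes detected, pool 60 had 9.57 M reads with 7592 genes, and pool 57 was the deepest at 15.56 M reads with 8604 genes. The part of depth was not tested either.

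**Figure D3:**
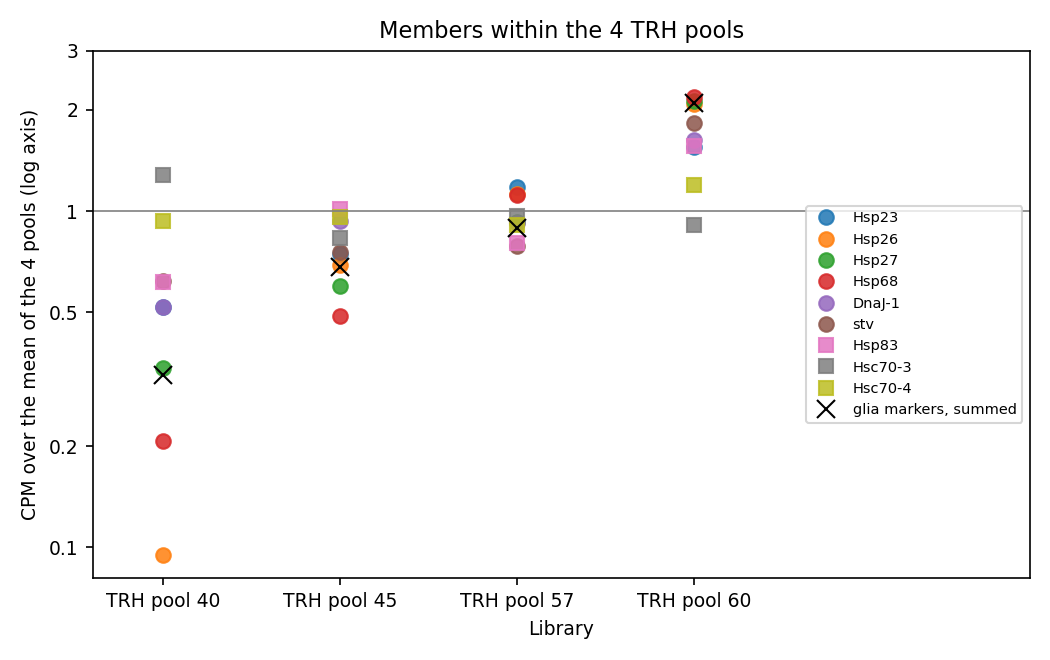
Level of the 9 genes with reads in each TRH pool, divided by the gene's mean over the 4 pools (log axis; circles inducible, squares constitutive genes, crosses the summed glia markers). The inducible genes, Hsp83 and the crosses are lowest in pool 40 and highest in pool 60, and Hsc70-3 is highest in pool 40.

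The summed level of the 7 inducible members over that of the 3 constitutive members gives a ratio within a library that does not depend on scaling between libraries. It was 0.0713, 0.114, 0.226 and 0.191 in TRH pools 40, 45, 60 and 57 (mean 0.15 ± 0.071, SD, n = 4), against 0.21 in the sNPFR pool and 0.118 in the summed cells. Both sNPFR units lay within the range of the TRH pools. This rests on Hsp83 in the denominator: with it left out, a choice made after the values were seen, the ratio was 0.11, 0.226, 0.513 and 0.341 in TRH pools 40, 45, 60 and 57, against 0.668 in the sNPFR pool, above all of them, and 0.255 in the summed cells. With Hsp83 in the denominator, the ratio over the 8 cells ran from 0.000801 in cell 2 to 2.19 in cell 3, with a median of 0.135. Cells 3 and 4, then the only libraries above 0.5, were also the shallowest, at 4.57 and 3.38 M reads and with 1317 and 1310 genes detected. The part of depth in their ratios was not tested. With Hsp83 left out, cells 3, 4, 5 and 6 stood at 8.23, 0.929, 2.98 and 0.604, and the other cells at 0.00115 to 0.216. Cell 5 had 9.27 M reads.

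**Figure D4:**
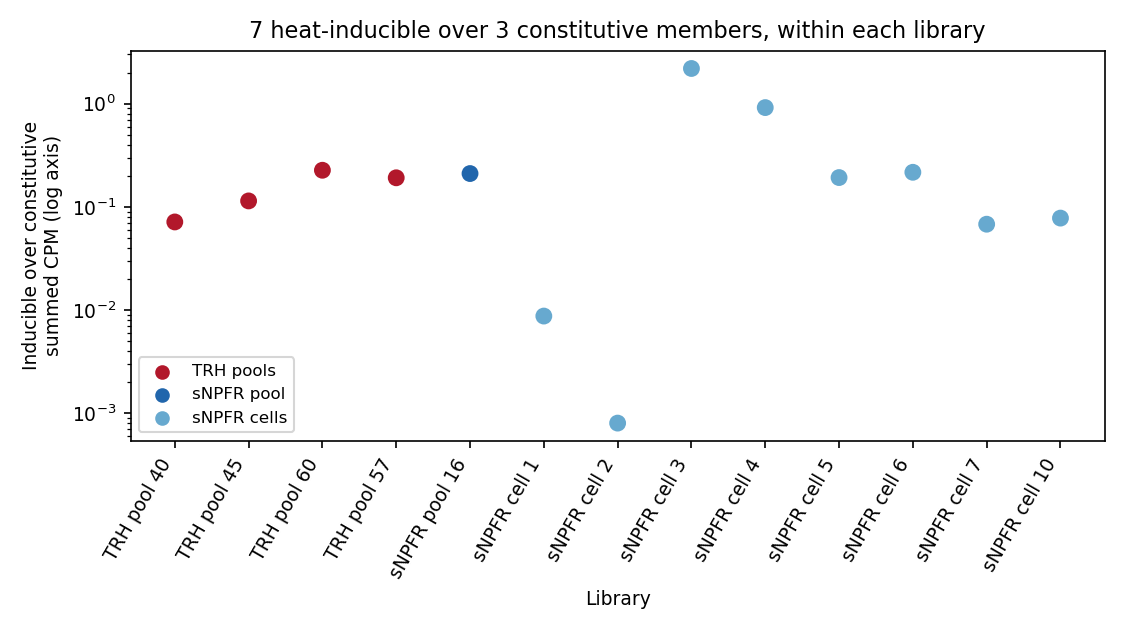
Summed CPM of the 7 inducible genes over that of the 3 constitutive genes in each library (log axis; red TRH pools, dark blue the sNPFR pool, light blue sNPFR cells). The TRH pools sit between 0.0713 and 0.226, the sNPFR pool at 0.21, and the cells spread from 0.000801 to 2.19.

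Single sNPFR cells spread widely in the inducible members. Hsp83 and Hsc70-4 were at 10 CPM or more in 8 of 8 cells and Hsc70-3 in 7 of 8. Of the inducible members Hsp68 reached that level in 5 of 8 cells, Hsp26 and stv in 4, Hsp23 in 3, DnaJ-1 in 2 and Hsp27 in 1. Of 3667 genes at 10 CPM or more in the summed cells, the median gene reached 10 CPM in 2 cells and 4.25% did so in all 8. A transcript of a single cell can escape capture, so a cell at 0 reads is not read as a cell without the transcript.

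Hsp68 stood at 4057, 6654 and 1475 CPM in cells 3, 4 and 5, from 2.66 to 49.8 CPM in cells 6, 7 and 10, and at 0 reads in cells 1 and 2. Its level in cell 4 was the highest of any inducible member in any library. Hsp26 stood at 1808 CPM in cell 3, 921.5 in cell 10, 664.9 in cell 6 and 152.6 in cell 7, with 0 reads in cells 1, 4 and 5 and 1.405 CPM in cell 2. Hsp23 stood at 1842 CPM in cell 4, 698.0 in cell 6 and 297.7 in cell 7, and at most at 1.823 CPM in the others. The cells with the highest Hsp26 and Hsp23 were therefore different cells, and both genes were above 100 CPM together only in cells 6 and 7.

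DnaJ-1 was at 286.0 CPM in cell 6 and 281.0 CPM in cell 7, with at most 0.3646 CPM in any other cell. Hsp27 was at 205.5 CPM in cell 5 and at most 0.9897 CPM elsewhere. stv was highest in cell 4 at 221.0 CPM, stood at 124.8 CPM in cell 10 and had 0 reads in cell 5. Over all pairs of the 9 members with reads, Spearman's rho across the 8 cells ran from -0.65, between Hsp68 and Hsc70-3, to 0.89, between Hsp27 and Hsp83. The next highest was 0.76, between Hsp27 and DnaJ-1, which were above 1 CPM in different cells. These are descriptions over 8 cells with many values at or near 0.

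The constitutive genes also varied between cells. Hsp83 ran from 146.1 CPM in cell 4 to 9050 CPM in cell 10, with a median of 3961 CPM. Hsc70-4 ran from 544.9 CPM in cell 5 to 9052 CPM in cell 4, with a median of 2707 CPM. Hsc70-3 ran from 0 reads in cell 3 to 3732 CPM in cell 10, with a median of 957.6 CPM. Cell 4 thus held the lowest Hsp83 and the highest Hsc70-4, Hsp68, Hsp23 and stv of the 8 cells. Cells 1 and 2 held almost no inducible member, with summed levels of 60.5 and 7.283 CPM, but ordinary levels of the constitutive genes, 6934 and 9092 CPM.

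The near-identical Hsp70 copies, 6 genes of the classical heat-induced Hsp70, could share reads and are given only as a sum. The sum stood at 1816, 1418, 1258 and 430.2 CPM in TRH pools 40, 45, 60 and 57, at 1252 CPM in the sNPFR pool and from 161.8 to 3022 CPM in the cells. Its order among the TRH pools was not that of the other inducible genes, since pool 40 was the highest and pool 57 the lowest. Cells 1 and 2, which held little of the other inducible members, had 2542 and 2715 CPM. The row named Hsp70Bb held 88.1% to 95.3% of these reads in the TRH pools, 94.5% in the sNPFR pool and 52.9% to 99.9% in the cells. Pieces of an Hsp70 gene are common parts of Gal4 and UAS transgenes, and whether reads of a transgene were counted in these rows was not tested. None of the 6 rows passed.

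Beyond the members, 71 genes of 11 chaperone and stress lists were tested. Of these 6 were higher in TRH, 4 were lower in TRH and 61 did not pass, which is 14.1% called beside 13.6% of all tested genes. Of those higher in TRH, CHORD, P58IPK, CCT1, Thor and GstD1 had no read in the sNPFR pool and at most 5 over the cells. They passed the filter on low counts through the TRH pools alone. The sNPFR pool had 4634 genes detected, against 6510 to 8604 in the TRH pools, and the part of capture in these calls was not tested. No regulator passed. lncRNA:Hsromega had a log2 fold change of -1.10 ± 0.31 (adjusted p = 0.0597, edgeR). On plain CPM the sNPFR pool, at 9007, lay within the 6008 to 9775 of the TRH pools, and the summed cells stood at 13299. The gene passed without cell 7 (-1.25, adjusted p = 0.0413, edgeR), among other settings. Against the summed cells alone its fold change was -1.63. Hsf stood at 93.9 ± 74.4 CPM in the TRH pools (SD, n = 4), at 0 reads in the sNPFR pool and at 21.56 CPM in the summed cells, nearly all of it from cell 5 (adjusted p = 0.546, edgeR). Without cell 5 the summed level of Hsf was 0.008348 CPM and it was called higher in TRH (adjusted p = 0.0216, edgeR). Leaving out that cell removes nearly all sNPFR reads of Hsf, so this call follows from the choice of cell and is not read as a result. None of the 4 other small heat shock genes tested passed, Hsp67Ba (-1.21 ± 1.27) and l(2)efl (-1.78 ± 3.08) having the smallest p. Hsp67Ba averaged 23.1 ± 3.51 CPM over the TRH pools, against 82.08 CPM for the sNPFR pool and 4.246 CPM for the summed cells, which stood at 0.04174 CPM without cell 5. All 1280 cell reads of l(2)efl were from cell 1, and without that cell its fold change was positive and did not pass (adjusted p = 0.171, edgeR).

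Of the 4 other Hsp70 family genes, Hsc70-5, the mitochondrial Hsp70, was lower in TRH, at 151.7 ± 28.2 CPM, against 525 CPM for the sNPFR pool and 342.9 CPM for the summed cells (-1.98 ± 0.45, adjusted p = 0.0333, edgeR). Hsc70Cb, an Hsp110-type exchange factor, was also lower in TRH, at 190.1 ± 63.9 CPM, against 485.6 and 577.2 CPM (log2 fold change ± error -2.001 ± 0.507, adjusted p = 0.0445). The summed cells stood at 140.1 CPM for Hsc70Cb without cell 7, below the TRH mean, and that call was then lost. The other 2 genes of the family did not pass.

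J proteins other than DnaJ-1 were called in both directions, with 2 of 8 higher in TRH, 1 lower and 5 not passing. P58IPK, a J protein of the endoplasmic reticulum, averaged 44.96 ± 33.48 CPM over the TRH pools and had no read in either sNPFR unit (adjusted p = 0.0254, edgeR). The J-domain gene jdp averaged 1595 ± 757 CPM over the TRH pools, against 188.6 CPM for the sNPFR pool and 219.3 CPM for the summed cells (2.46 ± 0.61, adjusted p = 0.0413). The call of jdp was lost without cell 1 (adjusted p = 0.0522, edgeR), without cell 5 (0.0518) and against the summed cells alone (0.108), and the summed cells stood at 93.21 CPM without cell 7. Droj2, a cytosolic J protein of the DnaJA type, was lower in TRH, at 568.8 ± 51.1 CPM, against 953.4 and 1138 CPM (-1.42 ± 0.32, adjusted p = 0.0317), and lost the call without cell 7, where the summed cells stood at 534.4 CPM.

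Of 9 Hsp90 family and co-chaperone genes 8 did not pass and CHORD, a CHORD-domain partner of Hsp90, was higher in TRH, at 20.7 ± 7.85 CPM and without a read in either sNPFR unit (adjusted p = 0.0291, edgeR). The cytosolic chaperonin CCT, which folds actin and tubulin, had 1 of 8 subunit genes higher in TRH, 1 lower and 6 not passing. CCT1 averaged 84.4 ± 65.5 CPM over the TRH pools, while the sNPFR pool held no read of it and the cells held 1 (adjusted p = 0.0215). CCT7 stood at 104.6 ± 38.0 CPM, against 409.7 and 601 CPM (-2.86 ± 0.55, adjusted p = 0.0235). The summed cells stood at 300.4 CPM for CCT7 without cell 7, and 5 of 8 cells had 0 reads of it. Subunits of 1 complex were thus called in opposite directions, and the part of capture in the sNPFR libraries was not tested.

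None of 6 prefoldin genes passed, Pfdn1 (adjusted p = 0.105, edgeR) and Pfdn4 (0.107) having the smallest p, nor did any of 3 mitochondrial chaperonin genes, with Hsp60A at -0.82 ± 0.37 (adjusted p = 0.166) and CG11267 at -1.08 ± 0.72 (0.322). None of 11 genes of endoplasmic reticulum folding and stress passed, the smallest p being those of Xbp1, a transcription factor of the unfolded protein response (-1.15 ± 0.34, adjusted p = 0.070), and Calr, the lectin chaperone calreticulin (-1.14 ± 0.47, adjusted p = 0.144). Of 9 other stress genes 2 were higher in TRH: Thor, a brake on translation, at 37.0 ± 14.7 CPM and without a read in either sNPFR unit (adjusted p = 0.0235), and GstD1, a glutathione transferase, at 186.7 ± 135.7 CPM, while the sNPFR pool held no read of it and the cells held 5 (adjusted p = 0.0218). All 10 of these list calls were lost when TRH pool 45, 60 or 57 was left out, and 6 of the 10 held without TRH pool 40 (CHORD, P58IPK, CCT1, CCT7, GstD1 and Thor).

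Genes whose pattern over the 13 libraries was most like that of the summed small heat shock genes were cdi (Pearson's r of log2(CPM + 1) 0.935), Sap47 (0.842), Pur-alpha (0.819), bel (0.784) and RpS15Aa (0.778), among 4617 genes ranked. For Hsp83 they were Pep (0.925), Mgat2 (0.919), SRPK (0.887), ATPsynE (0.884) and ATPsynbeta (0.877). In cell 4, where Hsp83 was lowest at 146.1 CPM, Pep, Mgat2, SRPK and ATPsynE had 0 reads and ATPsynbeta had 45. The summed small heat shock genes stood at 0 and 1.405 CPM in cells 1 and 2. There cdi, Pur-alpha, bel and RpS15Aa stood at 0 to 15.57 CPM, and Sap47 at 1080 and 1110 CPM. How far r rests on such cells was not tested. Libraries of a group share preparation, so these are descriptions over 13 libraries. No listed chaperone was among the 10.

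**Figure D5:**
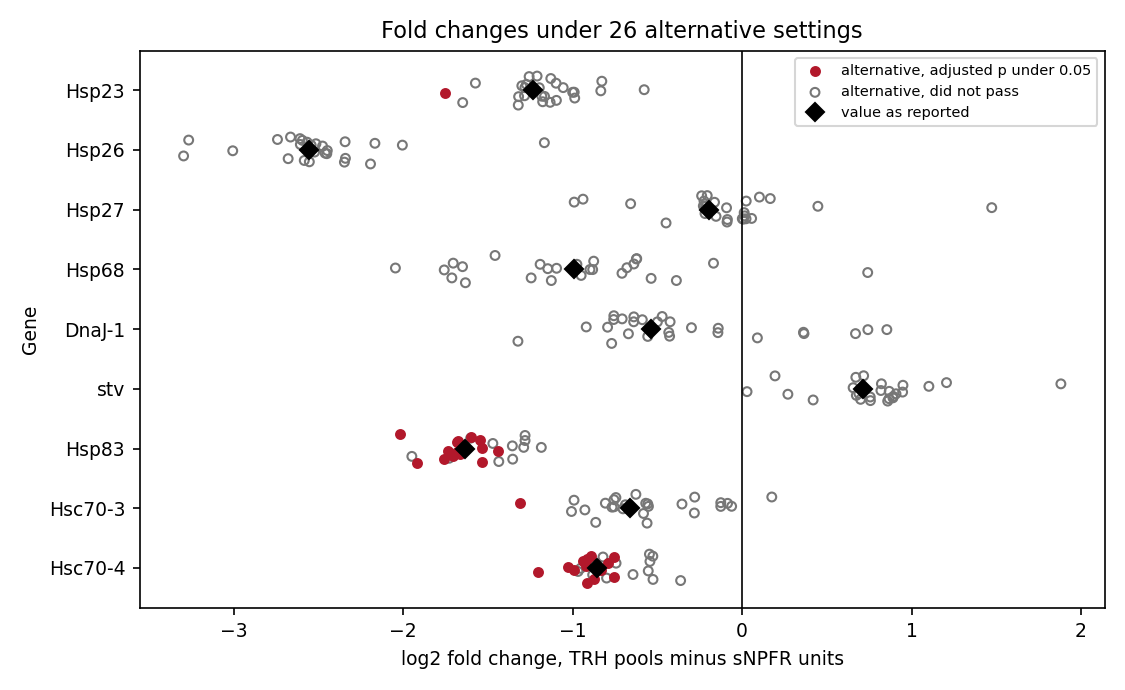
Log2 fold change (TRH pools minus sNPFR units) of the 9 tested genes as reported (diamonds) and under 26 alternative settings (circles, filled where the adjusted p was under 0.05; vertical scatter within a gene only separates points). Hsp83 stayed between -2.02 and -1.19 and passed in 15 settings, Hsc70-4 between -1.21 and -0.36 in 13, and Hsp27, Hsp68, DnaJ-1 and Hsc70-3 crossed 0.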

How the data were processed

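The authors deposited whole read counts per gene for 17737 genes. STAR, edgeR and the BDGP6 build are named, without versions, per the submitters' processing notes, and how reads were counted (tool, annotation, strand) is not given in the sources used here. A second deposited table, of normalized signal for 6445 genes, gave whole reads for 100% of its values (relative tolerance 0.001) after division by a constant of the library, and those equal the counts. edgeR on those recovered reads called 1201 genes. 1 column of per-sample values that matched no sample was not used.

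CPM was computed from column totals. The test was edgeR 4.0.16 in R 4.3.3 (quasi-likelihood, TMM, filterByExpr, Benjamini-Hochberg threshold 0.05) on 4 TRH pools and 2 sNPFR units, with 4 residual degrees of freedom. Alternatives used DESeq2 1.42.0 and limma 3.58.1. The test was also run on simulated data, with results not given here. Tables and figures used Python 3.11.15, numpy 2.4.6, pandas 2.3.3, scipy 1.17.1 and matplotlib 3.10.9.

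Coordinates, exon lengths and overlaps are from Ensembl release 115 of BDGP6. The list entry Hop was taken as Stip1. Members and lists were chosen with earlier results of these data known. The text names all 10 members, the list genes past the threshold or, in a list with none, the 2 with the smallest p, and the 5 genes most like the summed small heat shock genes and Hsp83. Marker genes, CG5446, Ire1, p23, Gp93, HIP and genes named for sharing exon bases with a member fall outside that rule and were chosen after their values were seen.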

Additional observations from a re-analysis of the deposited data

Results flagged for a closer look

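In 4 of 18 sets of values (9 members, in the 4 TRH pools and in the 8 sNPFR cells) 1 library lay far from the others by Dixon's test, where chance gives about 1 in 20 for independent, normally distributed values. The cells do not meet that, since they are not replicates and Hsp23 and Hsp27 had 0 reads in 4 of 8 each, so the flags over cells are descriptions. stv stood at 422.2 CPM in TRH pool 60, with the other 3 pools at 142.8 to 181.3 CPM. Among the sNPFR cells, Hsp23 stood at 1842 CPM and Hsc70-4 at 9052 CPM in cell 4, and Hsp27 at 205.5 CPM in cell 5.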

How the results depend on the processing

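The 1009 genes called over all genes became 2974 with DESeq2, 2745 with the sNPFR pool alone and 2027 with the summed cells alone, and 16 to 1226 when 1 TRH pool or cell was left out. Calls higher in TRH were 77.7% of the total, 67.2% with TMMwsp, 84.7% with RLE scaling and 87.9% with library totals only, with a median log2 fold change of 0.67, 0.41, 1.05 and 1.28. The 2 members called became 0 with RLE scaling, with library totals only, with DESeq2, with limma on the deposited values (pseudocounts of 1 and 0.1) and with cells scaled to equal depth. The count became 1 with no filter on low counts (Hsp83), with limma-voom (Hsc70-4) and with the summed cells alone, where the 1 member called was Hsc70-3 and neither of the 2 was. With the sNPFR pool alone it was 2, Hsp83 and Hsp23 but not Hsc70-4. It was 0 to 2 when 1 TRH pool or cell was left out. With the sNPFR pool alone 8834 genes were tested, and their median log2 fold change was 7.565. With the summed cells alone these values were 8879 and 4.351, against 7426 and 0.67 as reported. Hsp83 and Hsc70-4 stayed lower in TRH in all 26 settings, with adjusted p from 0.0141 to 0.995 and from 0.00664 to 0.418, and lost the call in 11 and 13. limma-voom gave Hsp83 an adjusted p of 0.995, and the cause was not tested. Among the other members 2 calls appeared, Hsp23 against the sNPFR pool alone and Hsc70-3 against the summed cells alone. Hsp27 changed sign in 11 settings, DnaJ-1 in 6, Hsp68 in 1 and Hsc70-3 in 1. With Hsp83 left out of the constitutive sum the ratio of inducible to constitutive members averaged 0.298 over the TRH pools, against 0.15. No paired analysis was possible because the groups share no replicate numbers. Failing the test does not show a gene to be the same in both groups.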
